A study of Drosophila melanogaster with 4 samples.

Results

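The genes described here are 32 potassium, sodium and leak channel genes of Drosophila, chosen by name and function and matched by symbol to the FlyBase identifiers of the deposited counts. All 32 were among the 13929 counted genes. They comprise voltage-gated, calcium-activated, inward-rectifier and two-pore potassium channels, and accessory proteins of Shaker and Slowpoke. They also include the sodium channel para and its auxiliary subunits, the para relative NaCP60E, the cation channel Ih and the sodium leak channel complex. Nuclear RNA was sequenced from male photoreceptor neurons (PRs) at Day 30 after eclosion, collected at zeitgeber time 6. The siTop3β flies carried the RNAi transgene TRiP.JF01282 against the topoisomerase Top3β, and the siControl flies carried an RNAi transgene directed at mCherry, which is foreign to the fly. Both genotypes also carried UAS-Dcr-2, which strengthens RNAi, the w[1118] and ry[506] alleles, UAS-GFP-Msp300KASH, which places GFP on the nuclear envelope, and rh1-GAL4. This driver acts in outer PRs only, so both the RNAi and the tag were limited to these cells, and nuclei were captured by the tag from the heads of pooled flies. Each group had 2 libraries, and p-values measure only the spread between libraries of a group. The fits estimated this spread for each gene partly from all genes tested.

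Potassium channels let potassium leave the cell and bring the membrane back towards rest, whereas sodium channels and the sodium leak channel admit sodium and depolarize it. Fly PRs answer light with graded depolarization, and the voltage-gated potassium channels Shaker and Shab shape this response. The action potentials of other fly neurons depend on para. Voltage-gated channels carry their pore in an α subunit, to which auxiliary subunits bind and change its gating or its delivery to the membrane.

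Library totals ran from 3239201 to 3965125 counts in siTop3β and from 3615880 to 4267208 counts in siControl. A count of 3, taken as the floor for detection, corresponded to between 0.697 and 0.871 CPM (counts relative to the library total after normalization), and such a floor covers counting error only. All 16 genes on the list of PR markers had counts. Their summed level was 63071 and 70200 CPM in the libraries labelled siTop3β and 71239 and 72502 CPM in siControl. This sum does not by itself set outer PRs apart from inner PRs. The gene of outer PRs named in the paper, ninaE (Rh1), had 14832.7 and 16183.6 CPM in the libraries labelled siTop3β. In siControl it had 18200.5 and 17071.6 CPM. The sums of 9 markers of other neurons (147.4 to 190.2 CPM over all libraries), 7 of glia (172.7 to 204.1 CPM), 5 of inner PRs (83.3 to 97.6 CPM), 5 of muscle (26.7 to 61.2 CPM) and 6 of fat body and blood (24.3 to 68.2 CPM) were far lower. Of the 41 markers tested, edgeR called 0, against 1.21% of all genes tested. It had 1 at an unadjusted p under 0.05, against 9.09%. This was Gad1, a marker of other neurons, with 13.6 and 8.28 CPM in the libraries labelled siTop3β and 14.9 and 18.6 CPM in siControl. Its log2 fold change was -0.61 (edgeR adjusted p = 0.531). Of the 9 markers of other neurons, 6 had a negative log2 fold change and 3 a positive one. DESeq2 called 0, against 1.21% of all genes with a DESeq2 adjusted p. It had 2 at an unadjusted p under 0.05, against 3.68% of the genes tested by edgeR. In bulk nuclei, fewer cells of a type and less RNA per cell cannot be told apart. Among these markers only the glial gene gcm and the muscle gene Act88F were at 0 in both siControl libraries. siTop3β replicate 1 had a count on 12922 genes, against 10104 to 10537 in the other libraries. Top3β itself (FBgn0026015), at which the RNAi is aimed, had 16.5 and 19.0 CPM in the libraries labelled siTop3β and 16.3 and 16.3 CPM in siControl, a log2 fold change of 0.13 with a standard error of 0.25 (edgeR adjusted p = 0.957). These levels rest on few reads, with 57 and 71 counts in the libraries labelled siTop3β and 70 and 57 counts in siControl. The target was thus not seen to be lower, and every direction given here rests on the labels of the libraries. By qPCR, the paper reported reduced Top3β transcript in larvae with ubiquitous RNAi, which is a different stage, tissue and driver.

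Counts of the listed genes in these PR nuclei came mostly from a few genes of potassium channels and their accessory proteins. Together the 32 genes took 3.45% and 3.51% of all counts in the libraries labelled siTop3β and 3.71% and 3.76% in siControl. The 7 genes with the most counts, Sh, slo, qvr, eag, SK, Slob and Hk, held 88.3% of the counts of the 32. Sh (Shaker, FBgn0003380), the α subunit of the fast-inactivating A-type current, alone took 1.35% and 1.44% of the libraries labelled siTop3β and 1.57% and 1.62% of siControl, and was number 6 of all 13929 counted genes by mean CPM. Because long genes collect more reads, levels of different genes were compared as CPM per kb of exonic length. On this scale Sh was number 32 of the counted genes with annotation. Among the channel genes, Sh (558.2 to 736.1 over the 4 libraries) and qvr (540.3 to 694.2) were highest and overlapped each other. slo (427.8 to 492.4) came next and stood apart from both neighbours in the order. KCNQ, eag and Slob followed, with values that overlapped between neighbours and lay between 234.1 and 339.8. SK, Hk and Teh2 lay between 129.7 and 212.0, again overlapping between neighbours.

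Below a gap, Shab (51.3 to 79.4 CPM per exonic kb) and Ih (53.7 to 63.5) overlapped each other, followed by Teh3, Teh4, Shal and sei between 21.6 and 50.3. para and NaCP60E, listed here as sodium channel α genes, were lower still. NaCP60E had 15.5 to 20.8 and para 7.25 to 11.8 CPM per exonic kb, para overlapping its neighbour tipE. The sodium leak complex, SLO2, Shaw, Task6, Task7, Irk2, Elk, Teh1 and Ork1 were all below 5 CPM per exonic kb. Over gene span in place of exonic length, qvr came before Sh, and KCNQ moved from the 4th to the 11th place. The longest stretch of KCNQ without an exon is 37.1 kb of its 46.5 kb span, and whether intronic reads were counted is not stated.

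**Figure D1:**
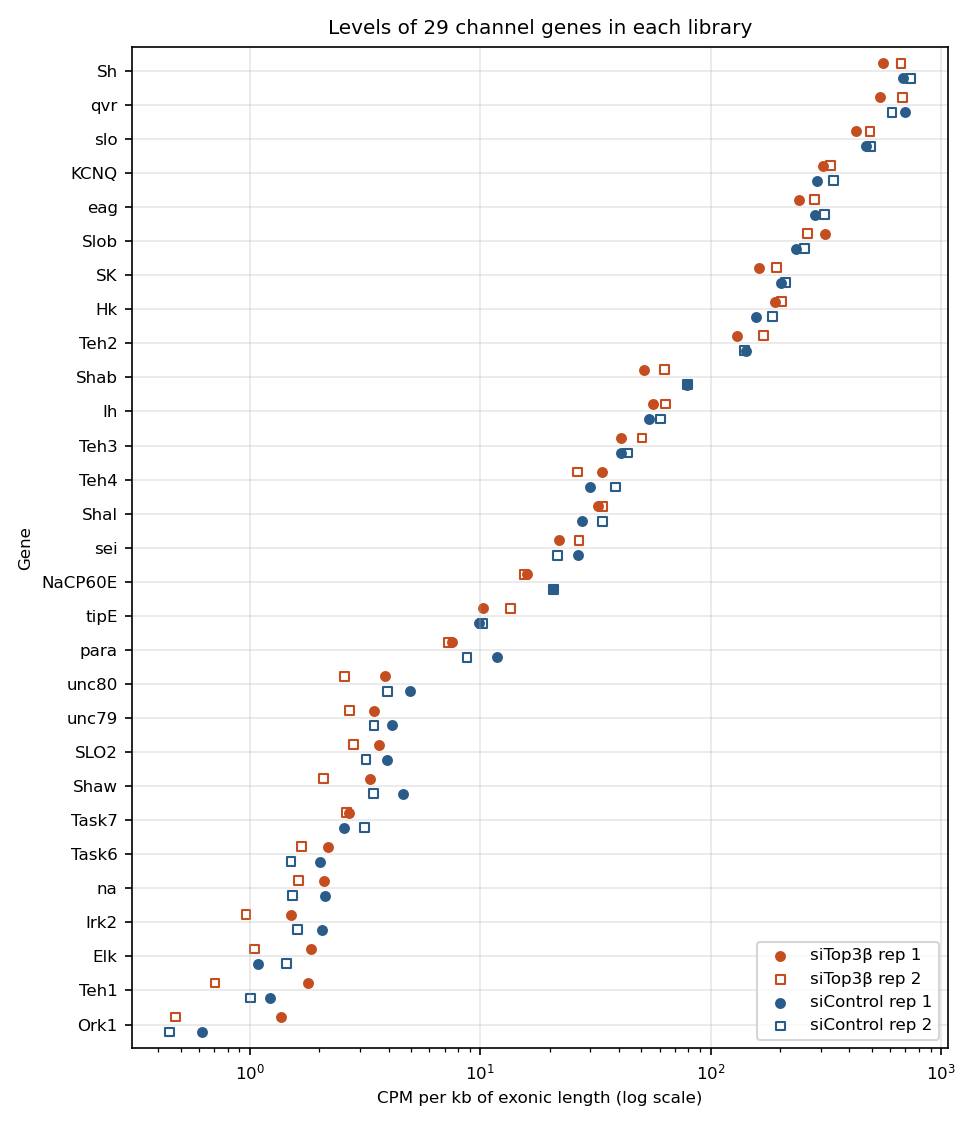
Level of each of the 29 channel genes that passed the expression filter, as CPM per kb of exonic length on a log scale, with 1 point per library (orange siTop3β, blue siControl; filled circle replicate 1, open square replicate 2). The order runs from Sh at the top, with 558.2 to 736.1, to Ork1 at the bottom, with 0.447 to 1.36.

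To ask whether Top3β RNAi was accompanied by changes in channel genes, the groups were compared by edgeR's quasi-likelihood test over the 7029 genes that passed its expression filter. Of the 32 channel genes 29 passed the filter, and 0 of these 29 had an adjusted p under 0.05, against 1.21% of all genes tested (85 genes, with 0.825% lower and 0.384% higher in siTop3β). The DESeq2 Wald test also called 0, with an adjusted p for 23 of the 29, against 1.21% of all genes with a DESeq2 adjusted p. At an unadjusted p under 0.05, edgeR had 5 of the 29 (17.2%), and DESeq2 had 3, against 3.68% of the same 7029 genes by DESeq2. All 5, Shab, para, NaCP60E, unc80 and Shaw, had a negative log2 fold change, while 9.09% of all genes tested had such a p in edgeR (5.43% with a negative log2 fold change). The median log2 fold change of the 29 genes was -0.070, against 0.024 for all genes tested, with 15 of them below 0 and 14 above. Both libraries labelled siTop3β were below both siControl libraries for 9 of the 29 genes (31.0%, against 19.0% of all genes tested) and above both for 3 (10.3%, against 19.6%). These shares describe the list and were not tested.

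For 24 of the 29 genes the 95% interval of the fold change lay within 2-fold in either direction, and for 16 of these within 1.5-fold. The intervals of Shaw, Irk2, Ork1, Task7 and Teh1 reached beyond 2-fold.

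**Figure D2:**
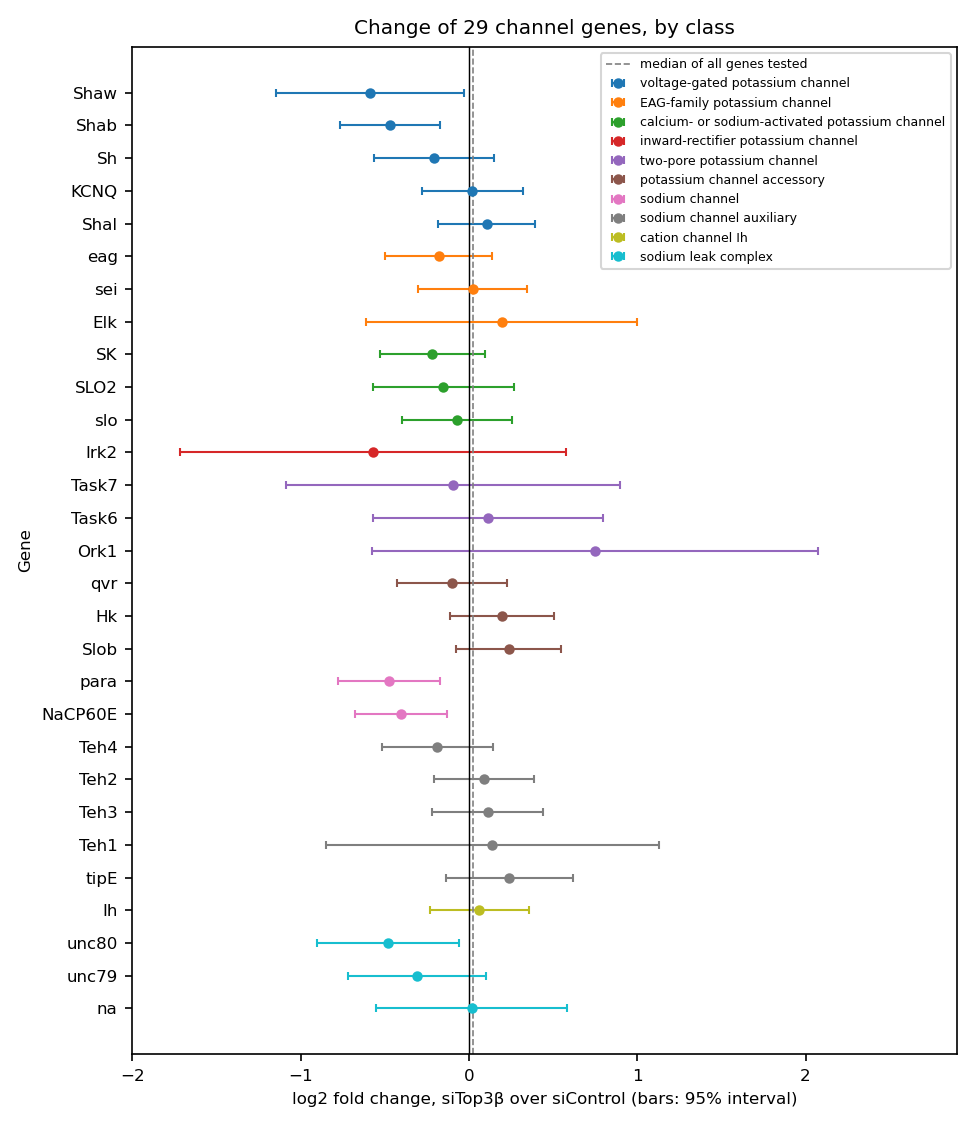
Log2 fold change of the 29 tested channel genes, siTop3β over siControl, grouped by class, with bars for the 95% interval from edgeR; the dashed line marks the median of all genes tested, 0.024. The intervals of Shaw, Shab, para, NaCP60E and unc80 lie below 0, and 0 of the 29 genes had an adjusted p under 0.05.

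Among the voltage-gated potassium channels, Shab and Shaw had lower values in both libraries labelled siTop3β, whereas Shal and KCNQ had overlapping values. Shab (FBgn0262593, chromosome 3L from 2895017 to 2959579 in dm6) encodes a delayed rectifier. It had 582.5 and 715.6 CPM in the libraries labelled siTop3β, against 892.8 and 902.3 CPM in siControl. The groups did not overlap, and the siControl libraries lay closer together than the libraries labelled siTop3β. The log2 fold change was -0.47 with a standard error of 0.14 (edgeR adjusted p = 0.131), with a 95% interval from 58.9% to 88.8% of siControl. Shab was called in edgeR when only total counts were used for scaling (adjusted p = 0.0369, 0.896% of all genes called) and without siTop3β replicate 2 (log2 fold change -0.66, edgeR adjusted p = 0.000329, 5.22% of all genes called), and over all alternatives its adjusted p ran from 0.000329 to 0.937.

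Shaw (FBgn0003386, chromosome 2L from 3718185 to 3729145) encodes a non-inactivating channel and had few reads, with 16.5 and 10.4 CPM in the libraries labelled siTop3β and 23.0 and 17.2 CPM in siControl. Its groups were apart by less than 1 CPM, and its log2 fold change was -0.59 (SE = 0.27, edgeR adjusted p = 0.503). Sh (chromosome X from 17924307 to 18063247) had 12728 and 15259 CPM in the libraries labelled siTop3β and 15518 and 16783 CPM in siControl. The higher siTop3β value and the lower siControl value nearly met. The log2 fold change of Sh was -0.21 (SE = 0.17, edgeR adjusted p = 0.819), with a 95% interval from 67.7% to 111% of siControl.

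Shal, an A-type channel of dendrites and cell bodies in other fly neurons, had 148.9 and 155.9 CPM in the libraries labelled siTop3β and 127.5 and 156.2 CPM in siControl, a log2 fold change of 0.11. KCNQ, related to the channels of the slow M-type current of mammals, had 1191 and 1279 CPM in the libraries labelled siTop3β and 1118 and 1317 CPM in siControl, a log2 fold change of 0.022. For both genes the values overlapped. The gene mlt lies within KCNQ on the same strand, and how reads shared by the genes were counted is not stated. Its summed counts over the 4 libraries were 2183, against 18313 for KCNQ.

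The EAG family consists of eag itself, sei, the fly counterpart of mammalian ERG channels, and Elk. eag (FBgn0000535, chromosome X from 14955477 to 15009989) had 2579 and 3003 CPM in the libraries labelled siTop3β and 3001 and 3322 CPM in siControl. These values overlapped, with a log2 fold change of -0.18. sei had 72.3 and 87.8 CPM in the libraries labelled siTop3β and 86.6 and 70.7 CPM in siControl, a log2 fold change of 0.024. The gene gammaSnap1 overlaps sei on the opposite strand and had 283 counts in all, against 1198 for sei. Elk had few reads, with 21 to 34 counts per library and a log2 fold change of 0.20, whose 95% interval ran from 65.6% to 199.8% of siControl.

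Of the channels opened by intracellular ions, slo encodes the large-conductance channel gated by calcium and voltage, SK the small-conductance calcium-activated channel, and SLO2 a relative of slo whose mammalian counterparts respond to sodium. slo (FBgn0003429, chromosome 3R from 24662491 to 24711595) had 4344 and 4985 CPM in the libraries labelled siTop3β and 4792 and 4999 CPM in siControl. The groups overlapped, and the log2 fold change was -0.070 with a 95% interval from 76.0% to 119% of siControl. SK (FBgn0029761, chromosome X from 5340236 to 5405138) had 1765 and 2103 CPM in the libraries labelled siTop3β and 2189 and 2308 CPM in siControl. Here both libraries labelled siTop3β were lower, by a log2 fold change of -0.22 (SE = 0.15, edgeR adjusted p = 0.764). SLO2 had 36.6 and 28.3 CPM in the libraries labelled siTop3β and 39.7 and 32.1 CPM in siControl, which overlapped.

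The accessory genes of these channels were abundant. Hk (Hyperkinetic) encodes the β subunit of Shaker, qvr (quiver, also called sleepless) a membrane-anchored protein that raises Shaker levels and activity, and Slob a protein that binds Slowpoke. Hk (FBgn0263220, chromosome X from 10233347 to 10263485) had 2040 and 2167 CPM in the libraries labelled siTop3β, both above the 1691 and 1983 CPM of siControl. Its log2 fold change was 0.20 (SE = 0.15, edgeR adjusted p = 0.790). Slob (FBgn0264087, chromosome 2L from 7642005 to 7675078) had 2308 and 1932 CPM in the libraries labelled siTop3β, likewise above the 1722 and 1874 CPM of siControl, with a log2 fold change of 0.24 (SE = 0.15, edgeR adjusted p = 0.733). qvr had 2757 and 3454 CPM in the libraries labelled siTop3β and 3542 and 3124 CPM in siControl, which overlapped, with a log2 fold change of -0.10.

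The ratio of 2 genes within a library does not depend on the scaling between libraries. Per exonic kb, the level of Hk relative to Sh was 0.341 and 0.302 in the libraries labelled siTop3β and 0.232 and 0.251 in siControl. Slob relative to slo was 0.733 and 0.535 in the libraries labelled siTop3β and 0.496 and 0.517 in siControl. Both ratios were higher in both libraries labelled siTop3β, although the Slob ratio of replicate 2 differed little from siControl. qvr relative to Sh overlapped between the groups (0.968 and 1.01 in the libraries labelled siTop3β, 1.02 and 0.832 in siControl). These pairs of subunits were chosen after the values of the genes were seen, and the ratios were not tested.

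para and NaCP60E, listed here together as sodium channel α genes, had lower values in both libraries labelled siTop3β. para (paralytic, FBgn0285944, chromosome X from 16455027 to 16533096) encodes the voltage-gated sodium channel of fly action potentials. It had 122.8 and 118.3 CPM in the libraries labelled siTop3β and 191.8 and 142.8 CPM in siControl. The siControl libraries differed from each other by more than the lower of them differed from siTop3β. The log2 fold change was -0.48 (SE = 0.15, edgeR adjusted p = 0.132), with a 95% interval from 58.3% to 88.7% of siControl and an adjusted p over all alternatives from 0.0241 to 1.00.

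NaCP60E (FBgn0085434, chromosome 2R from 24891614 to 24921677) is related to para in sequence. Which ions its channel passes was not tested, so only para stands here for the sodium channel of action potentials. It had 248.4 and 242.2 CPM in the libraries labelled siTop3β and 323.7 and 325.7 CPM in siControl. Relative to the group means, its SD in siTop3β (4.42 CPM) and in siControl (1.38 CPM) was the smallest of the 5 genes with an unadjusted p under 0.05. The log2 fold change was -0.40 (SE = 0.13, edgeR adjusted p = 0.173), with a 95% interval from 62.5% to 91.3% of siControl. The log2 fold change ran from -0.44 to -0.42 with each library left out in turn, and from -0.46 to -0.35 over all alternatives. Its edgeR adjusted p was 0.102 with a filter of 10 counts in each library and 0.544 without a filter. para relative to NaCP60E, per exonic kb, was 0.473 and 0.468 in the libraries labelled siTop3β, between the 0.568 and 0.420 of siControl.

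**Figure D3:**
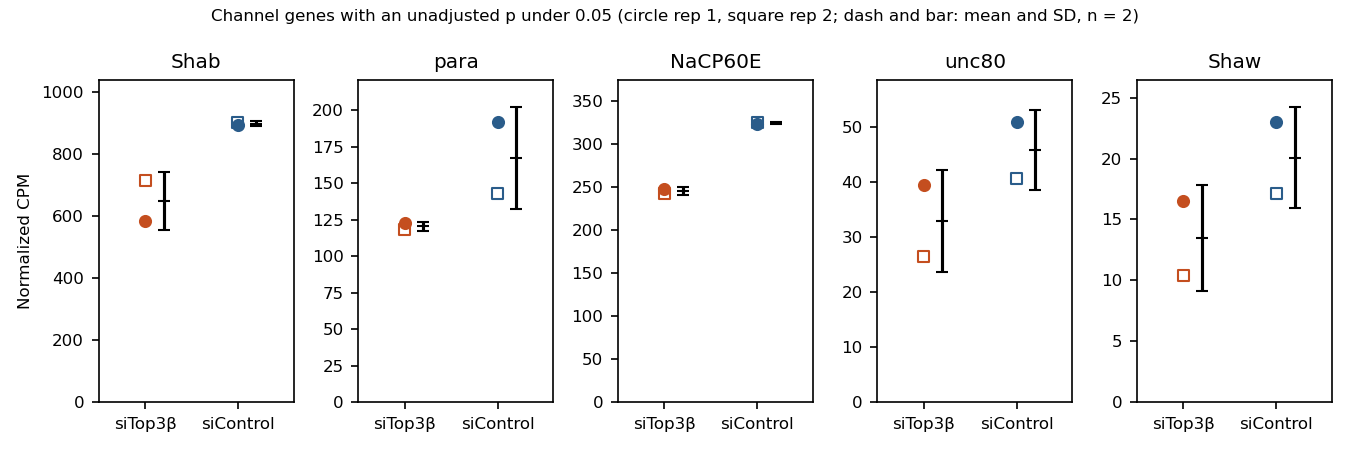
Normalized CPM of Shab, para, NaCP60E, unc80 and Shaw in each library of siTop3β (left in each panel) and siControl (right), with the mean and SD (n = 2) beside the points; each vertical axis starts at 0. In all 5 panels both siTop3β points are below both siControl points, and for NaCP60E they are 248.4 and 242.2 against 323.7 and 325.7 CPM.

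The auxiliary subunits of the sodium channel are tipE, which was found through temperature-sensitive paralysis, and its homologs Teh1 to Teh4. tipE, Teh2, Teh3 and Teh4 lie within 18.9 kb on chromosome 3L (4174859 to 4193788), and Teh3 lies inside Teh2 on the same strand, so their reads may not be fully separable. Teh2 was the most abundant, with 426.3 and 557.8 CPM in the libraries labelled siTop3β and 466.7 and 459.3 CPM in siControl. VhaM9.7-c also overlaps Teh2 on the same strand, with 1407 counts in all, against 7173 for Teh2. tipE (FBgn0003710) had 41.8 and 55.0 CPM in the libraries labelled siTop3β and 40.4 and 41.8 CPM in siControl, where 2 of the values all but coincided. Its log2 fold change was 0.24 (SE = 0.18, edgeR adjusted p = 0.790). Teh4 (FBgn0035504) had 92.0 and 72.4 CPM in the libraries labelled siTop3β and 81.7 and 105.9 CPM in siControl, with overlap and a log2 fold change of -0.19 (SE = 0.16, edgeR adjusted p = 0.821). Teh2 and Teh3 had log2 fold changes of 0.088 and 0.11. Teh1, which lies apart on chromosome 3R, had only 12 to 28 counts per library.

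The sodium leak complex holds the pore subunit na (narrow abdomen) and the large proteins unc79 and unc80, which are needed for its function. unc80 (FBgn0039536, chromosome 3R from 27662439 to 27677099) had 39.5 and 26.4 CPM in the libraries labelled siTop3β and 50.9 and 40.6 CPM in siControl. The groups were apart by little more than 1 CPM, with a log2 fold change of -0.48 (SE = 0.20, edgeR adjusted p = 0.419). unc79 (FBgn0038693, chromosome 3R from 19230764 to 19246130) had 35.1 and 27.5 CPM in the libraries labelled siTop3β and 42.0 and 35.2 CPM in siControl, so that the nearest values of the groups were almost equal. Its log2 fold change was -0.31 (SE = 0.20, edgeR adjusted p = 0.740). For na the values overlapped, 16.5 and 12.8 CPM in the libraries labelled siTop3β and 16.7 and 12.0 CPM in siControl. Ih, a cation channel opened by hyperpolarization, had 711.0 and 807.7 CPM in the libraries labelled siTop3β and 683.4 and 771.5 CPM in siControl, and its log2 fold change was 0.062 with a 95% interval from 85.3% to 128% of siControl.

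Inward-rectifier and two-pore potassium channels, which set resting conductance, were scarce. Irk1, Irk3 and sand missed the expression filter. Irk1 had 4 and 3 counts in the libraries labelled siTop3β and 0 and 4 in siControl, Irk3 had 5 and 4 against 0 and 2, and sand (sandman) had 8 and 0 against 0 and 1. Each of these 3 genes overlaps a gene on the opposite strand, cnc, Grip71 and uno, with more counts in all (3544, 59 and 41). Irk2 had 13 and 9 counts in the libraries labelled siTop3β and 22 and 14 in siControl. Ork1, an open rectifier, had 21 and 8 counts in the libraries labelled siTop3β and 12 and 7 in siControl, and Task7 had 16 and 17 against 19 and 19. Task6 had more counts than Task7 but a lower level per exonic kb, with 37 and 31 counts in the libraries labelled siTop3β and 43 and 26 in siControl. Among the 7 channel genes with fewer than 100 counts in all, 5 had their highest CPM in siTop3β replicate 1, the library with a count on the most genes and the highest sum of fat body and blood markers (68.2 CPM, against 24.3 to 34.6 CPM elsewhere). The part of either in these values was not tested. In the sum of fat body and blood markers, Yp1 had 48 counts in siTop3β replicate 1 and 0 to 2 elsewhere. Yp2 had 28 counts there and 0 or 1 elsewhere. Of the 6 genes in the sum, only Lsp2 was not highest in that library (6.09 CPM, against 7.73 CPM in siControl replicate 2). Without siTop3β replicate 1, the log2 fold change of Ork1 was -0.18 in place of 0.75, and that of Teh1 -0.66 in place of 0.14.

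**Figure D4:**
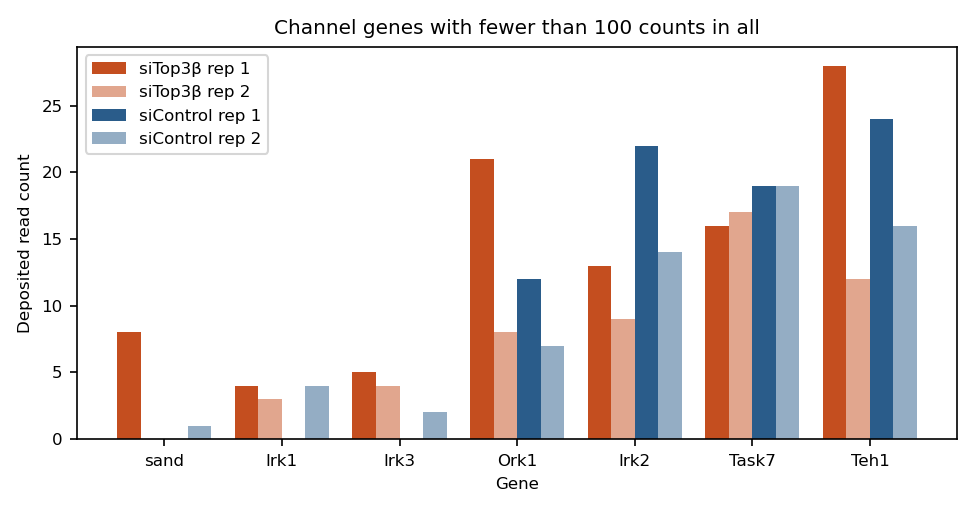
Deposited read counts of the 7 channel genes with fewer than 100 counts over the 4 libraries, with siTop3β bars (orange) to the left of siControl bars (blue) and replicate 2 in the paler shade. sand has 8 counts in siTop3β replicate 1 and at most 1 elsewhere, and Ork1 has 21 there and 7 to 12 elsewhere.

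Channel genes were long, a property that the choice of genes did not use. The span from the first to the last annotated base had a median of 17.7 kb for the 29 tested channel genes, against 3.54 kb for the 6987 tested genes with a span. A span above 50 kb occurred in 7 of the 29 genes, Sh, SLO2, para, SK, Shab, eag and Elk, and for 4.09% of all tested genes. Of these 7, 6 had a negative log2 fold change, with a median of -0.21. The median of all 286 tested genes over 50 kb was -0.18, and 6.29% of them were called lower in siTop3β. Among the 22 channel genes up to 50 kb the median was 0.023, with 9 below 0. Spearman's rho between span and log2 fold change was -0.18 across the 29 genes and -0.13 across all tested genes, and with exonic length it was -0.35 across the 29. These are descriptions across genes, which share the same libraries and are not replicates, and span and mean CPM of the 29 genes had a rho of 0.45. Shaw, NaCP60E, unc80 and Irk2, with spans of 11.0, 30.1, 14.7 and 5.83 kb, were among the lowest log2 fold changes without being over 50 kb. The 7 X-linked channel genes had a median log2 fold change of -0.18, against -0.024 for the 22 on other chromosomes and -0.00087 for all tested X-linked genes, and 4 of the 7 (Sh, para, SK and eag) also had spans over 50 kb.

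**Figure D5:**
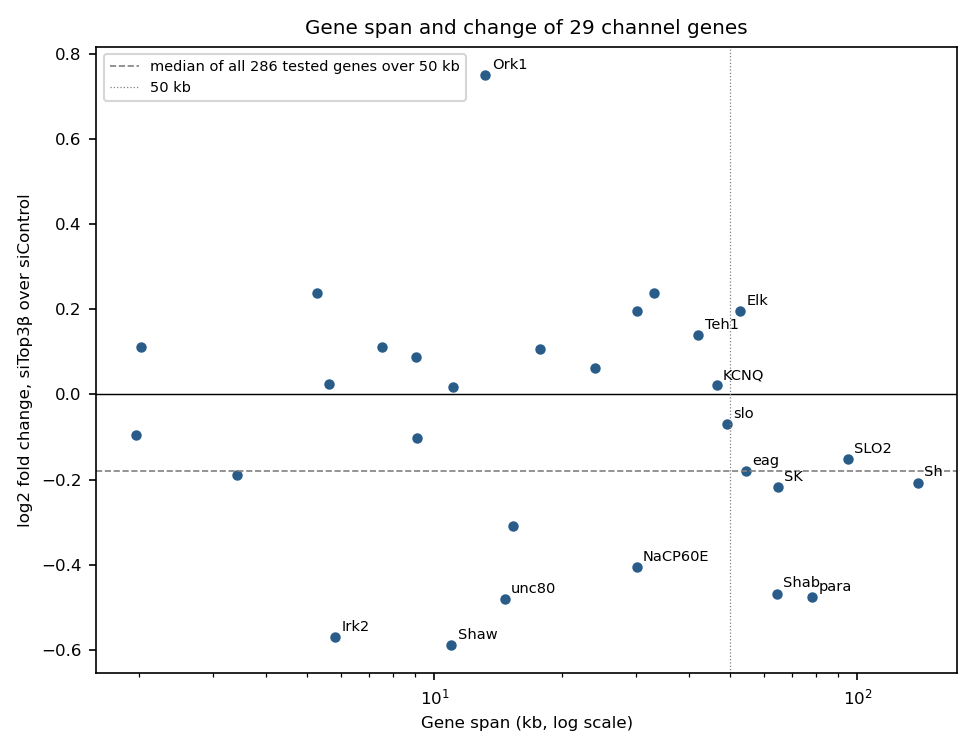
Log2 fold change of the 29 tested channel genes (siTop3β over siControl) against gene span in kb on a log scale, 1 point per gene; the dashed line marks the median of all 286 tested genes over 50 kb, -0.18. Elk is the only one of the 7 genes right of the dotted line at 50 kb with a value above 0.

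A further 8 potassium channel genes outside the 32, Shawl, galene and 6 genes with CG numbers, were also scarce. Of the 6 that passed the filter, 0 had an adjusted p under 0.05 by edgeR (1.21% of all genes tested). At an unadjusted p under 0.05 there were also 0 (9.09% of all genes tested). DESeq2 gave an adjusted p for 2 of the 6 and called 0 (1.21% of all genes with a DESeq2 adjusted p). It had 0 at an unadjusted p under 0.05 (3.68% of the genes tested by edgeR). Shawl, a relative of Shaw, had 48 and 18 counts in the libraries labelled siTop3β and 69 and 38 in siControl, CG1688 had 73 and 21 against 31 and 30, and CG42340 had 29 and 34 against 25 and 19. CG1688 was high in siTop3β replicate 1 alone, whereas both libraries labelled siTop3β were above both siControl libraries for CG42340.

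Of 20 genes whose products bind, modify or edit channels or their transcripts, 18 were tested and 0 had an adjusted p under 0.05 by edgeR (1.21% of all genes tested), with 3 at an unadjusted p under 0.05 (9.09% of all genes tested), and DESeq2 likewise called 0, with 3 at an unadjusted p under 0.05 (3.68% of all genes tested). Their median log2 fold change was -0.13. The most abundant were dysc, a partner of slo, with 6040 and 7685 CPM in the libraries labelled siTop3β and 6849 and 7917 CPM in siControl, the splicing regulator ps (4176 and 4665 against 5187 and 5308 CPM), and calmodulin, Cam (3845 and 4408 against 4480 and 4771 CPM). For dysc the groups overlapped, and for ps and Cam both libraries labelled siTop3β were lower. pum, a translational repressor that acts on para transcripts, was among the 3, with 790.3 and 930.2 CPM in the libraries labelled siTop3β, 1056 and 1154 CPM in siControl and a log2 fold change of -0.36 (edgeR adjusted p = 0.368). The others were Pka-R1, a regulatory subunit of protein kinase A, with a log2 fold change of -0.32, and wake with 0.58. Each had an edgeR adjusted p of 0.413. The level of wake was low, with 31.1 and 20.8 CPM in the libraries labelled siTop3β and 17.0 and 17.7 CPM in siControl. These 3 genes were named after their values were seen.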

How the data were processed

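Nuclei of rh1-GAL4 photoreceptors were enriched by the authors, and their processing notes name Trimmomatic for trimming, STAR as aligner, SAMtools and the build dm6. The authors deposited unnormalized read counts per gene for 4 libraries. The counting tool, its annotation and the treatment of introns, strand and multiply aligned reads are not given in the sources used here. The study's methods describe 3 independent biological replicates for its high-throughput experiments in general, and 2 libraries per group were analysed here.

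Counts were analysed in edgeR 4.0.16 (R 4.3.3) with TMM scaling, filterByExpr and quasi-likelihood fits with robust set to true, and p-values were adjusted by Benjamini-Hochberg over all genes tested, at a threshold of 0.05 and with no replicate block. Standard errors and 95% intervals were derived from the test statistic. DESeq2 1.42.0, other scalings, filters, a block and single left-out libraries were alternatives. The test was also run on simulated counts that had the same dispersion for every gene. That setting is simpler than these libraries, and no conclusion is drawn from it here. Symbols came from the reference gene table, and spans, exonic lengths and coordinates from Ensembl release 115 (dm6). No sequences were used here. Channel genes and lists were chosen with earlier results of these data known. All channel genes were accounted for, and full statistics were given for the 12 with the smallest p. Of the fixed lists, Camta and Trh were not matched, and Nlf-1 was matched by a synonym.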

Additional observations from a re-analysis of the deposited data

How the results depend on the processing

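Of the 29 channel genes tested, 0 were called under each alternative except 3, which called 1 gene each, lower in siTop3β: total counts only (Shab, log2 fold change -0.45), the crossed pairing (para, log2 fold change -0.46) and leaving out siTop3β replicate 2 (Shab). Leaving out single libraries, the number called ran from 0 to 1, the number lower from 0 to 1 and the number higher from 0 to 0. In these fits the lone library of a group is assumed to vary like the other group. The genes called among all genes tested then ran from 52 to 424, with 40 to 171 lower and 11 to 253 higher.

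Of all genes tested, 85 were called (58 lower, 27 higher). The DESeq2 Wald test called 51 (8 higher), a filter of 10 counts in each library gave 138 (94 lower and 44 higher), and an adjusted p under 0.1 gave 134 (90 lower and 44 higher). Without a filter 42 genes were higher, and scaling by total counts only left 17 higher and 63 in all. Deviations of same-numbered libraries about their group means correlated at -0.12, and nothing pairs them. With the replicate block 60 genes were called, 17 of them higher, and 0 channel genes. Crossing the pairs, an alternative chosen after seeing the data, gave 211 (131 lower, 80 higher) and 1 channel gene. The causes were not tested.

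The median log2 fold change of the channel genes was -0.12 with DESeq2, -0.11 with no filter, -0.046 with total counts only and -0.022 with upper quartile scaling, and from -0.12 to -0.062 with single libraries left out. With DESeq2 and with no filter the log2 fold changes of KCNQ (-0.034 and -0.016), sei (-0.028 and -0.013) and na (-0.037 and -0.028) turned negative. Leaving out single libraries turned the sign of 15 genes, with ranges of -0.26 to 0.51 for Elk, -0.073 to 0.15 for Ih, -0.12 to 0.13 for KCNQ, -0.18 to 1.28 for Ork1, -0.062 to 0.24 for Shal, -0.093 to 0.32 for Task6, -0.27 to 0.038 for Task7, -0.66 to 0.63 for Teh1, -0.16 to 0.27 for Teh2, -0.093 to 0.26 for Teh3, -0.21 to 0.26 for na, -0.31 to 0.052 for qvr, -0.17 to 0.16 for sei, -0.21 to 0.027 for slo and -0.015 to 0.42 for tipE. Depth limits the genes under 100 counts, and the intervals of those tested reach beyond 2-fold.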
